A study of Mus musculus with 9 samples.

Results

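The genes described here code for receptors of laminin and collagen and for laminin chains: the integrin chains α2 (Itga2), α3 (Itga3), α6 (Itga6), α7 (Itga7) and β4 (Itgb4), and the laminin chains α3 (Lama3), α5 (Lama5), β3 (Lamb3) and γ1 (Lamc1). A probe set of the array was taken where its annotation names one of these genes and no other, which gave 14 probe sets of 9 genes, of 22626 probe sets and 12393 genes in all. MLP29 cells are an established mouse line of hepatic progenitors. Their RNA was hybridised to Affymetrix Mouse430A_2 arrays, with 1 array per sample and 3 arrays per condition from 3 separate experiments. All cells were kept in 0.1% serum for 16 h or more. Untreated cells were compared with cells given 20 ng/ml of HGF/SF1, the ligand of the receptor Met, and with cells given 10 µg/ml of the function-blocking antibody BMB5 against α5β1 integrin, the main fibronectin receptor. A legend to array data in the study gives 24 h for both treatments. The control arrays are described as untreated, while the methods name an IgG control antibody among the controls of the study in general, and whether the control arrays received it is not stated. If they did not, blocking the integrin and adding an antibody cannot be told apart. All values come from 1 cell line.

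Laminins are trimers of an α, a β and a γ chain that form the core sheet of basement membranes. Integrins are αβ heterodimers: α3, α6 and α7 pair with β1 to bind laminin, α2 pairs with β1 to bind collagen and also some laminins, and β4 pairs with α6 alone. The α6β4 integrin is the laminin receptor of hemidesmosomes, where the long tail of β4 holds plectin and through it the keratin filaments. The laminin that contains the α3 and β3 chains is the classical ligand of α3β1 and α6β4 under epithelia, and the laminin of the α5, β1 and γ1 chains is common in the basement membranes of adult organs. In the liver, laminin surrounds bile ducts and the progenitor cells beside them.

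Values are log2 intensities per probe set, and a difference of 1 is a 2-fold difference. A gene is given by its brightest probe set, and levels of different genes are not compared, because probe sets differ in brightness for the same amount of RNA. Differences were tested with limma over all probe sets, with a mean per condition, and a gene is called higher or lower where the unadjusted p is under 0.05. The study names a p-value threshold without saying whether it was adjusted. The p adjusted over all 22626 probe sets (Benjamini-Hochberg) is given beside it, and 0 members passed 0.05 after that adjustment. Of all genes, 0.0403% passed it for antibody against untreated cells, 0% for HGF/SF1 against untreated cells and 0.0242% for antibody against HGF/SF1. The 3 arrays per condition limit the precision of each value. The arrays measure RNA of whole cultures, in which fewer cells with a transcript and less of it per cell cannot be told apart.

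The epithelial identity of the line was read from the markers of liver progenitors and biliary epithelium. Of 10 measured, Krt8, Krt18, Krt19, Krt7 and Cdh1 were above the median brightness of all probe sets and Epcam, Sox9, Prom1, Cldn3 and Cldn4 were below it. Their mean level ranged from 8.21 to 8.35 on untreated arrays, from 8.20 to 8.30 with HGF/SF1 and from 8.15 to 8.32 with the antibody. Of 7 hepatocyte markers only Hnf4a was above the median, and their mean level ranged from 4.83 to 5.12, from 4.83 to 5.30 and from 4.80 to 5.03 in the same order. None of 8 fibroblast markers (4.19 to 4.43, 4.26 to 4.42 and 4.28 to 4.35) or of 6 endothelial markers (3.91 to 4.01, 3.90 to 4.04 and 3.87 to 4.20) was above it. The mean level of 8 macrophage and leukocyte markers ranged from 5.29 to 5.42 on untreated arrays, from 5.44 to 5.76 with HGF/SF1 and from 5.85 to 5.86 with the antibody. It was thus above the untreated range with both treatments, and highest with the antibody. With the antibody, Cd68 (2.60, SE 0.65, unadjusted p = 0.00363, adjusted p = 0.207 from limma) and Itgb2 (1.44, SE 0.56, unadjusted p = 0.0323, adjusted p = 0.367) were called higher against untreated cells. Of the 8, Cd14 and Cd68 were above the median brightness, taken as a mean over all 9 arrays. Cd68 averaged 5.50 in untreated cells, 5.90 with HGF/SF1 and 8.09 with the antibody, so its place above the median rested on the antibody arrays. The differences of the other 6 from untreated cells were -0.54 (SE 0.39) in Cd14, 0.19 (SE 0.12) in Lyz2 and from -0.01 to 0.09 in Ptprc, Adgre1, Csf1r and Itgam, which were below the median brightness. The part of these markers in the values below was not tested.

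With the antibody, 2 of the 9 members were called against untreated cells: Itgb4 was lower, with a log2 difference of -0.91 (SE 0.26), and Itga2 was higher, with one of 0.88 (SE 0.33). By the same rule 12.6% of all genes were called, 4.68% higher and 7.92% lower, so the number called among the members lies near that background, and the members are described one by one. The difference of Itga7 (0.88, SE 0.41) was of similar size and that of Lamc1 (0.56, SE 0.26) was smaller, and neither passed. Those of Itga3, Itga6, Lama3, Lama5 and Lamb3 lay between -0.10 and 0.26. Over the 9 members the median difference was 0.21, with 7 above 0 and 2 below, against a median of -0.00 over all genes. The median size of the difference, whatever its sign, was 0.26 over the members and 0.14 over all genes. Counted as probe sets, 2 of 14 were called, against 11.8% of all.

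**Figure D1:**
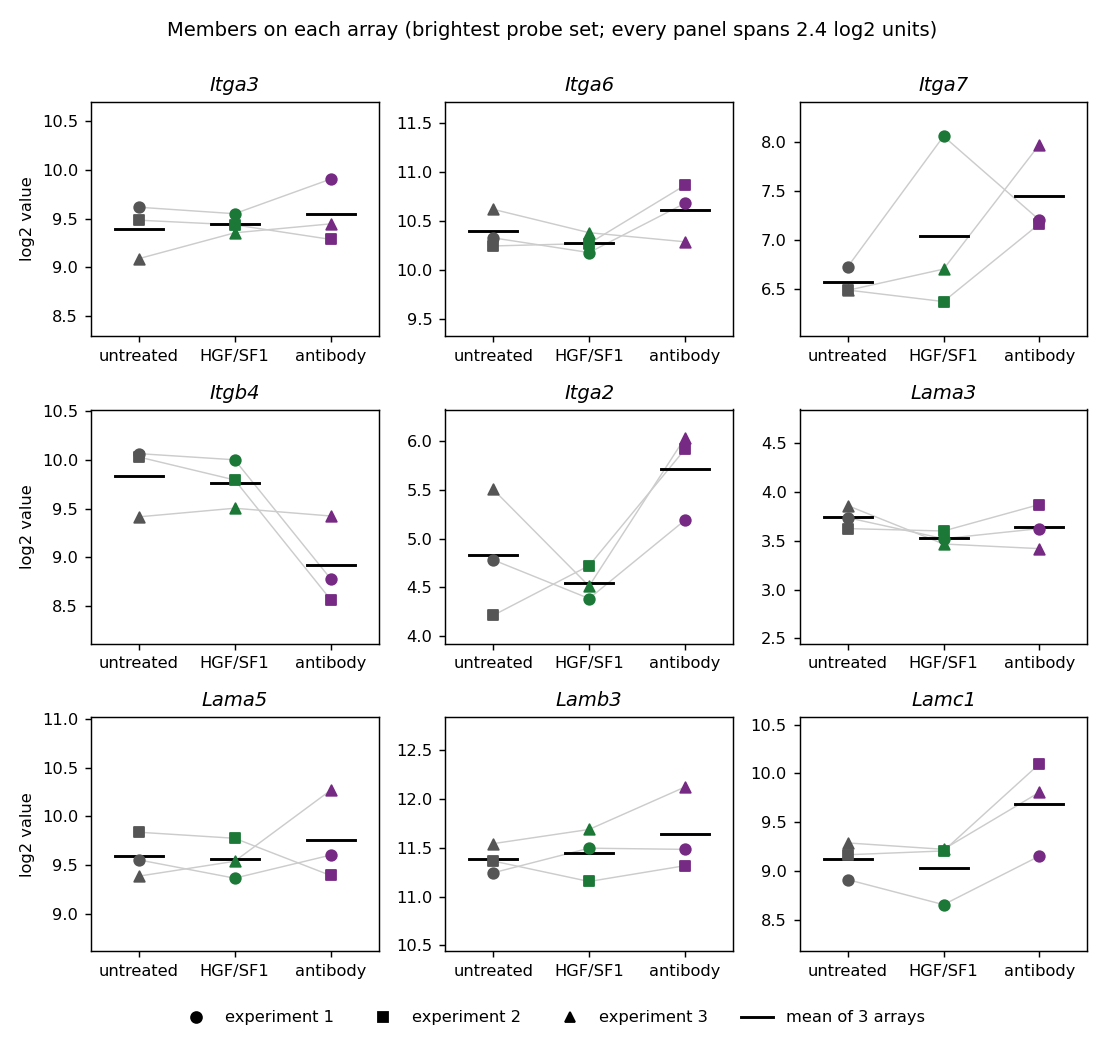
Log2 value of the brightest probe set of each member (vertical axis) on the 9 arrays, by condition (horizontal axis), with a symbol for each of the 3 experiments, grey lines that join the arrays of an experiment, and bars at the mean of 3 arrays. Itgb4 is lower with the antibody in experiments 1 and 2 and level with the untreated cells in experiment 3, while Itga2, Itga7 and Lamc1 are higher with the antibody in each experiment.

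Upstream sequence was at hand for 4 of the 9 members (Itga2, Itga3, Lama5 and Lamb3) from RefSeq on build GRCm38.p6, as 6 windows of the 250 bases directly before an annotated start. By the same annotation Itga2 lies on chromosome 13, Itga3 and Itgb4 on chromosome 11, Itga6 and Lama5 on chromosome 2, Itga7 on chromosome 10 and Lamb3 and Lamc1 on chromosome 1. Each window was searched on both strands for GGGCGG, the GC box bound by Sp1, and for TGANTCA, the AP-1 motif, with no overlap between matches of these motifs. Shown are the windows of Itga2, the member with sequence that was called, and of Itga3 and Lama5, a receptor chain and a laminin chain that were not, each 5′ to 3′ on the strand of its gene (the minus strand for all 3) with matches to GGGCGG or its complement in capitals.
Itga2, chr13:114932101-114932350: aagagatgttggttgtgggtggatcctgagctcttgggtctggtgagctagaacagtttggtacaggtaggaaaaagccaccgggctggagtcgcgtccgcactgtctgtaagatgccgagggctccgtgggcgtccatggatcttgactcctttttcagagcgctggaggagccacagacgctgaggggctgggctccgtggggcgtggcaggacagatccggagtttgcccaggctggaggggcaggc
Itga3, chr11:95076715-95076964: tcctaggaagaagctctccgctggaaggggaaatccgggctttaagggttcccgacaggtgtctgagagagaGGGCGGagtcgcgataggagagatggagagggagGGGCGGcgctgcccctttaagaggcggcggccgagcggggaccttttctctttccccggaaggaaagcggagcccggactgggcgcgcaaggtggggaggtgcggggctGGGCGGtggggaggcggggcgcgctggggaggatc
Lama5, chr2:180225860-180226109: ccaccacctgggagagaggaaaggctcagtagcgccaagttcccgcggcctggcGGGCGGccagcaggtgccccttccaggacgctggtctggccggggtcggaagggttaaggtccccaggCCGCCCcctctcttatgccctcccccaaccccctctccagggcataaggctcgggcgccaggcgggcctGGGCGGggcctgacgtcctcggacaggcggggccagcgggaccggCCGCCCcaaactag
The window of Lama5 holds 4 matches to GGGCGG, that of Itga3 holds 3, a second window of Itga3 holds 1, and those of Itga2 and of Lamb3 (2 windows) hold 0. Of 32851 RefSeq windows of the same length, 32.7% hold at least 1 match. TGANTCA was found in 0 of the 6 windows and in 6.75% of all. The bases G and C make up 60.8% of the Itga2 window, 67.6% of the first Itga3 window and 72.4% of the Lama5 window. A match describes the letters of a window and is not a bound site.

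Itgb4, whose product is the β chain that links α6 to hemidesmosomes, was measured by 1 probe set. Its log2 values in experiments 1, 2 and 3 were 10.06, 10.03 and 9.42 in untreated cells, 10.00, 9.79 and 9.50 with HGF/SF1 and 8.78, 8.57 and 9.42 with the antibody. The antibody arrays of experiments 1 and 2 were the lowest of the 9, while that of experiment 3 lay level with the untreated array of its experiment, so the groups overlapped there. Within experiments the differences were -1.28, -1.46 and 0.01. The fitted difference was -0.91 (SE 0.26, 95% interval -1.51 to -0.31, unadjusted p = 0.00772, adjusted p = 0.238 from limma), a level 1.88-fold lower. The untreated array of experiment 3 was also the lowest of the untreated arrays. Without experiment 1 the difference was -0.73 (unadjusted p = 0.0903) and without experiment 2 it was -0.64 (unadjusted p = 0.121), and the call was lost. Without experiment 3 it was -1.37 (unadjusted p = 0.00017).

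Itga6, which codes for the α partner of β4 and also pairs with β1, was measured by 2 probe sets. The brighter gave 10.33, 10.24 and 10.62 in untreated cells, 10.18, 10.27 and 10.38 with HGF/SF1 and 10.68, 10.87 and 10.29 with the antibody. The antibody arrays of experiments 1 and 2 were the highest of the 9 and that of experiment 3 lay within the range of the untreated arrays. The difference from untreated cells was 0.21 (SE 0.17, 95% interval -0.17 to 0.60, unadjusted p = 0.232). The other probe set gave 0.41 (SE 0.43), with 2.00 in experiment 2 and values below 0 in experiments 1 and 3, so the probe sets differed in direction in experiment 1. Itga6 was called higher without the antibody array of experiment 3 (0.38, unadjusted p = 0.0350) and without all of experiment 3 (0.49, unadjusted p = 0.0123). Over the 9 arrays, the log2 values of Itgb4 and of the brighter Itga6 probe set had a Pearson r of -0.903. It was the most negative among the pairs of members, each by its brightest probe set. These points share the 3 conditions and the 9 arrays, and the value is a description without a test. No r was taken for the other Itga6 probe set.

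Itga3, the α chain of the laminin receptor α3β1, was measured by 3 probe sets. The brightest gave 9.62, 9.48 and 9.09 in untreated cells, 9.55, 9.44 and 9.35 with HGF/SF1 and 9.90, 9.29 and 9.45 with the antibody. The 3 conditions overlapped, and the antibody was higher in experiments 1 and 3 and lower in experiment 2. The differences of the 3 probe sets were 0.15 (SE 0.19, 95% interval -0.28 to 0.58), 0.21 (SE 0.16) and 0.14 (SE 0.29), and none was called.

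Itga7, the α chain of the laminin receptor α7β1 known best from muscle, was measured by 1 probe set. Its values were 6.72, 6.49 and 6.48 in untreated cells, 8.06, 6.37 and 6.70 with HGF/SF1 and 7.20, 7.16 and 7.98 with the antibody. All 3 antibody arrays lay above all 3 untreated arrays, a pattern that 6.21% of all genes showed, and the HGF/SF1 array of experiment 1 was the highest of the 9. The difference between antibody and untreated cells was 0.88 (SE 0.41, 95% interval -0.06 to 1.83, unadjusted p = 0.0629, adjusted p = 0.462 from limma), with 0.48, 0.68 and 1.50 in experiments 1, 2 and 3. The fit shares its estimate of spread among the conditions. Without the HGF/SF1 array of experiment 1 the antibody difference kept its size and passed (unadjusted p = 0.00557), as it did without the HGF/SF1 array of experiment 2 (unadjusted p = 0.0437) and without experiment 1 (1.09, unadjusted p = 0.0117).

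Itga2, the α chain of the collagen receptor α2β1, was measured by 1 probe set, which was dimmer than the median of all probe sets. Its values were 4.78, 4.21 and 5.51 in untreated cells, 4.39, 4.72 and 4.51 with HGF/SF1 and 5.19, 5.92 and 6.03 with the antibody. The 2 highest values were those of the antibody in experiments 2 and 3, and the untreated array of experiment 3 lay above the antibody array of experiment 1, so the groups overlapped. The antibody was higher in 3 of 3 experiments, by 0.41, 1.70 and 0.53. The fitted difference was 0.88 (SE 0.33, 95% interval 0.12 to 1.64, unadjusted p = 0.0282, adjusted p = 0.349 from limma), a level 1.84-fold higher. Without experiment 2 it was 0.47 (unadjusted p = 0.257). The call was also lost without the untreated array of experiment 1 (0.85, unadjusted p = 0.0674) or 2 (0.57, unadjusted p = 0.101) and without the antibody array of experiment 2 (0.78, unadjusted p = 0.0831) or 3 (0.72, unadjusted p = 0.0931).

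Among the laminin chains, Lamc1 had the largest difference. It codes for γ1, the γ chain of most laminins. Its brighter probe set gave 8.91, 9.16 and 9.29 in untreated cells, 8.65, 9.20 and 9.22 with HGF/SF1 and 9.15, 10.10 and 9.81 with the antibody. The antibody arrays of experiments 2 and 3 were the highest of the 9, and that of experiment 1 lay within the untreated range. The difference was 0.56 (SE 0.26, 95% interval -0.02 to 1.15, unadjusted p = 0.0572, adjusted p = 0.446 from limma) and was above 0 in 3 of 3 experiments, at 0.24, 0.93 and 0.52. The other probe set gave 0.49 (SE 0.35), also above 0 in 3 of 3 experiments. Without the antibody array of experiment 2 the difference was 0.36 (unadjusted p = 0.200). It was called without the antibody array of experiment 1 (0.83, unadjusted p = 0.00495), without experiment 1 (0.73, unadjusted p = 0.00295) and when HGF/SF1 array 1 was left out (0.56, unadjusted p = 0.0453). Without experiment 2 it was 0.38 (unadjusted p = 0.282). With a term for the experiment in the fit (a block), Lamc1 was called higher (SE 0.14, unadjusted p = 0.00455, adjusted p = 0.106 from limma). In that fit 3 of the 9 members were called, against 18.5% of all genes. With the experiment as a random block, Lamc1 and Itga7 (unadjusted p = 0.0442) were both called, which made 4 of the 9, against 17.2% of all genes.

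Lama5, the α chain common in adult basement membranes, gave 9.55, 9.84 and 9.39 in untreated cells, 9.37, 9.77 and 9.54 with HGF/SF1 and 9.60, 9.39 and 10.27 with the antibody. The antibody array of experiment 3 was the highest of the 9 and the antibody array of experiment 2 lay at the low end. The differences of its 2 probe sets were 0.16 (SE 0.23, 95% interval -0.37 to 0.69) and 0.21 (SE 0.21). Lamb3, the β chain that assembles with the α3 chain, gave 11.24, 11.36 and 11.54 in untreated cells, 11.50, 11.15 and 11.69 with HGF/SF1 and 11.48, 11.32 and 12.12 with the antibody, again with the antibody array of experiment 3 as the highest. Its difference was 0.26 (SE 0.22, 95% interval -0.25 to 0.77). Lama3, the α chain of the same laminin, gave 3.74, 3.63 and 3.86 in untreated cells, 3.52, 3.60 and 3.47 with HGF/SF1 and 3.63, 3.87 and 3.42 with the antibody. Its probe set was brighter than only 15.5% of all probe sets, and its difference with the antibody was -0.10 (SE 0.13, 95% interval -0.40 to 0.20). None of these 3 genes was called.

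With HGF/SF1, 0 of the 9 members were called against untreated cells, where 0.839% of all genes were called, and 0 genes passed after adjustment. The differences ran from -0.29 in Itga2 (SE 0.33, 95% interval -1.05 to 0.47) to 0.48 in Itga7 (SE 0.41, 95% interval -0.46 to 1.42). That of Itgb4 was -0.07 (SE 0.26, 95% interval -0.67 to 0.53) and that of Lamc1 was -0.09 (SE 0.26, 95% interval -0.68 to 0.49). The difference of Itga7 rested on experiment 1, where the HGF/SF1 array was higher by 1.34, and without that array it was -0.03. All 3 HGF/SF1 values of the dim Lama3 lay below the 3 untreated ones, a pattern that 1.53% of all genes showed, at a difference of -0.21 (SE 0.13, unadjusted p = 0.142). The median over the members was -0.07, with 3 above 0 and 6 below, and the median size of the difference was 0.09 both over the members and over all genes. Both comparisons use the same untreated arrays.

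**Figure D2:**
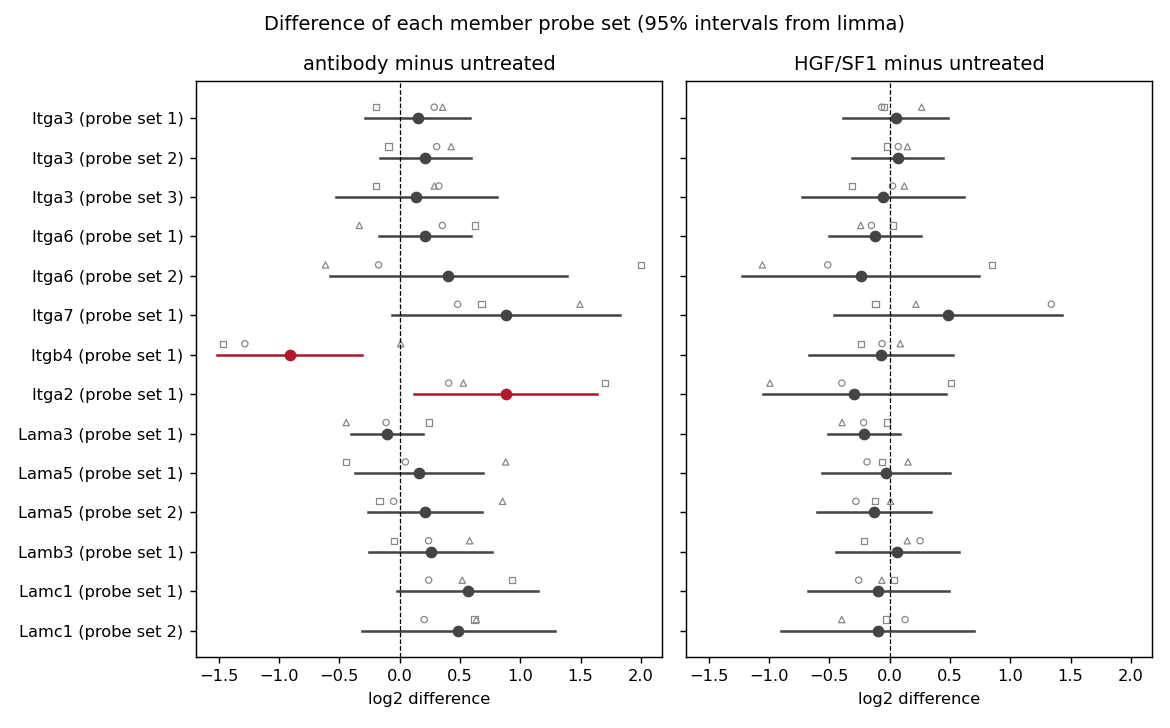
Log2 difference from untreated cells (horizontal axis) of all 14 member probe sets with the antibody (left) and with HGF/SF1 (right), with dots at the fitted difference, bars for the 95% interval of limma, open symbols for experiment 1 (circle), 2 (square) and 3 (triangle), and red for an unadjusted p under 0.05. Only the antibody intervals of Itgb4 (-1.51 to -0.31) and Itga2 (0.12 to 1.64) leave out 0, and 0 of the 14 HGF/SF1 intervals do.

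The treatments themselves were compared by setting the antibody arrays against the HGF/SF1 arrays, which shares its antibody arrays with the first comparison. Here 3 of the 9 members were called, where 14.1% of all genes were called, 5.19% higher and 8.96% lower. Itga2 was higher with the antibody by 1.17 (SE 0.33, 95% interval 0.41 to 1.93, unadjusted p = 0.00719, adjusted p = 0.211 from limma), or 2.25-fold. All 3 of its antibody values lay above all 3 HGF/SF1 values, as in 5.72% of all genes, and leaving out any array or experiment kept the call (from 1.00 to 1.43, highest unadjusted p = 0.0286). Itgb4 was 1.79-fold lower with the antibody, at -0.84 (SE 0.26, unadjusted p = 0.0116, adjusted p = 0.236). All 3 of its antibody values lay below the HGF/SF1 values, as in 8.74% of all genes, with differences of -1.22, -1.23 and -0.08 in experiments 1, 2 and 3. That call was lost without experiment 1 (-0.65, unadjusted p = 0.119) and without experiment 2 (-0.65, unadjusted p = 0.116). Lamc1 was higher by 0.66 (SE 0.26, unadjusted p = 0.0318, adjusted p = 0.322) and in 3 of 3 experiments. Its call was lost without the HGF/SF1 array of experiment 1 (0.47, unadjusted p = 0.113), without the antibody array of experiment 2 (0.45, unadjusted p = 0.116) or 3 (0.60, unadjusted p = 0.0849), and without experiment 2 (0.54, unadjusted p = 0.146) or 3 (0.70, unadjusted p = 0.112). The other 6 members had differences from 0.10 to 0.41, the highest in Itga7 (SE 0.41), and Itga6 came next at 0.34 (SE 0.17, unadjusted p = 0.0765). Itga7 was called without the HGF/SF1 array of experiment 1 (0.91, unadjusted p = 0.00829) and without experiment 1 (1.04, unadjusted p = 0.0141). Itga6 was called without the antibody array of experiment 3 (0.50, unadjusted p = 0.0104) and without experiment 3 (0.55, unadjusted p = 0.00746).

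**Figure D3:**
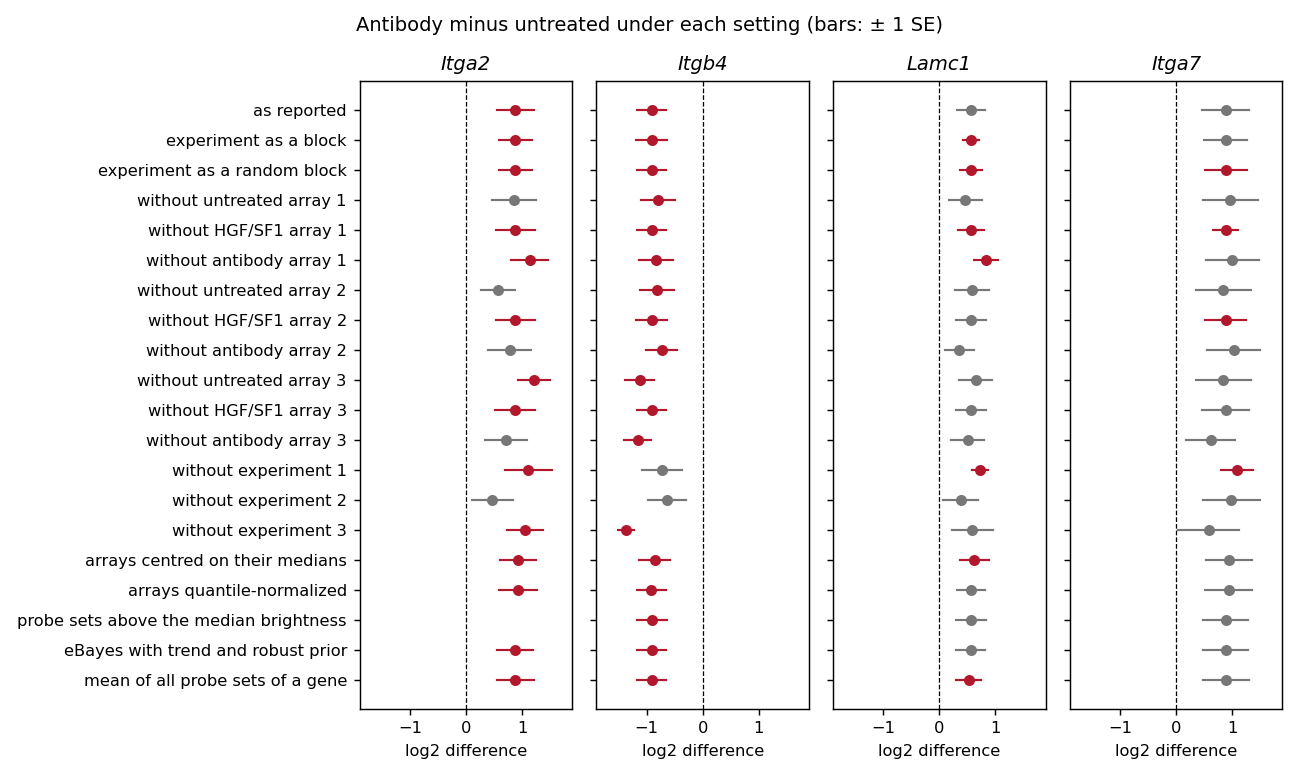
Log2 difference between antibody-treated and untreated cells (horizontal axis) for Itga2, Itgb4, Lamc1 and Itga7, as reported and under each other setting (vertical axis), with bars for 1 SE and red for an unadjusted p under 0.05. Itgb4 stays below 0 (-1.37 to -0.64 when arrays or experiments are left out) and Itga2 above 0 (0.47 to 1.22), and no value is drawn for Itga2 where probe sets under the median brightness were left out.

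The members also varied with each other over the 9 arrays. Beside the pair of Itga6 and Itgb4, Itga2 and Lamc1 had a Pearson r of 0.810, Itga2 and Itgb4 one of -0.710, and Itgb4 and Lamc1 one of -0.700. The other pairs lay between -0.586, for Lama3 and Lama5, and 0.686, for Itga6 and Lama3. Lama3 and Lamb3, chains of the same laminin, had an r of -0.573. The probe set of Lama3 was brighter than only 15.5% of all probe sets. Its values ran only from 3.42 to 3.87 over the 9 arrays, which limits what its r values describe. All of these points share arrays and conditions, and they are given as a description.

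The genes around the members were read from lists of other laminin chains, other receptors, hemidesmosome and keratin anchor proteins, basement membrane partners, enzymes and inhibitors of laminin processing, and fibronectin and vitronectin receptors. Of their 66 measured genes, 4 were called with the antibody, 0 with HGF/SF1 and 4 between the treatments, where 12.6%, 0.839% and 14.1% of all genes were called, and 0 passed after adjustment. The 6 other laminin chains measured (Lama1, Lama2, Lama4, Lamb1, Lamb2 and Lamc3) had a median difference of -0.10 with the antibody and 0 calls. Lamb1, which pairs with the α5 and γ1 chains, was dim and at -0.04 (SE 0.10). Of 19 basement membrane partners, among them nidogens, perlecan and type IV collagens, 0 were called, with a median of -0.02. Col4a1 was at 0.10 (SE 0.22) and Col4a2 at 0.42 (SE 0.31).

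The β1 chain that pairs with α2, α3, α6 and α7 did not pass the test. Itgb1 gave 9.70, 9.66 and 10.19 in untreated cells and 9.84, 9.82 and 10.03 with the antibody, a difference of 0.05 (SE 0.17), and 5 of its 6 probe sets were above 0. Cd151, a tetraspanin bound to laminin receptors, was at -0.03 (SE 0.15). Of the 11 other laminin and collagen receptors measured, 1 was called lower and 0 higher, with a median of 0.04. The gene called was Dag1, which codes for dystroglycan, a laminin receptor outside the integrins. Its values were 10.24, 10.41 and 10.33 in untreated cells, 10.14, 10.34 and 10.44 with HGF/SF1 and 10.28, 9.71 and 9.49 with the antibody, lower in experiments 2 and 3 and level in experiment 1. The difference was -0.50 (SE 0.19, unadjusted p = 0.0298, adjusted p = 0.356 from limma), and all 4 of its probe sets were below 0. That call was lost without untreated or antibody array 2 or 3 and without experiment 2 or 3, with the smallest difference of -0.33 without experiment 3 (unadjusted p = 0.192). It was also lost with the mean of the 4 probe sets, at -0.31 (SE 0.26, unadjusted p = 0.262).

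Among the 8 hemidesmosome and keratin anchor genes, Plec was called lower and 0 were called higher, with a median of -0.08. Plec codes for plectin, the linker that ties the tail of β4 to keratin filaments. It gave 12.21, 12.39 and 12.19 in untreated cells, 12.08, 12.30 and 12.13 with HGF/SF1 and 11.83, 11.67 and 11.44 with the antibody. All 3 antibody values lay below the other 6, and both of its probe sets were lower. In 8.74% of all genes the antibody values all lay below the HGF/SF1 values, and the share below the untreated values is not given here. The difference was -0.62 (SE 0.13, unadjusted p = 0.00108, adjusted p = 0.172 from limma) against untreated cells and -0.52 (SE 0.13, unadjusted p = 0.00298, adjusted p = 0.162) against HGF/SF1. Against untreated cells it was called in all 12 fits that left out an array or an experiment (-0.74 to -0.52). Without antibody array 1 its adjusted p from limma was 0.0280, and that of Dag1 was 0.0278. In the others of these fits the adjusted p of Plec was at least 0.0769. The keratins Krt8 (-0.15, SE 0.09) and Krt18 (-0.13, SE 0.09), the plectin relative Dst (-0.03, SE 0.29) and Col17a1 (0.05, SE 0.13), the dim transmembrane collagen of hemidesmosomes, were not called.

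**Figure D4:**
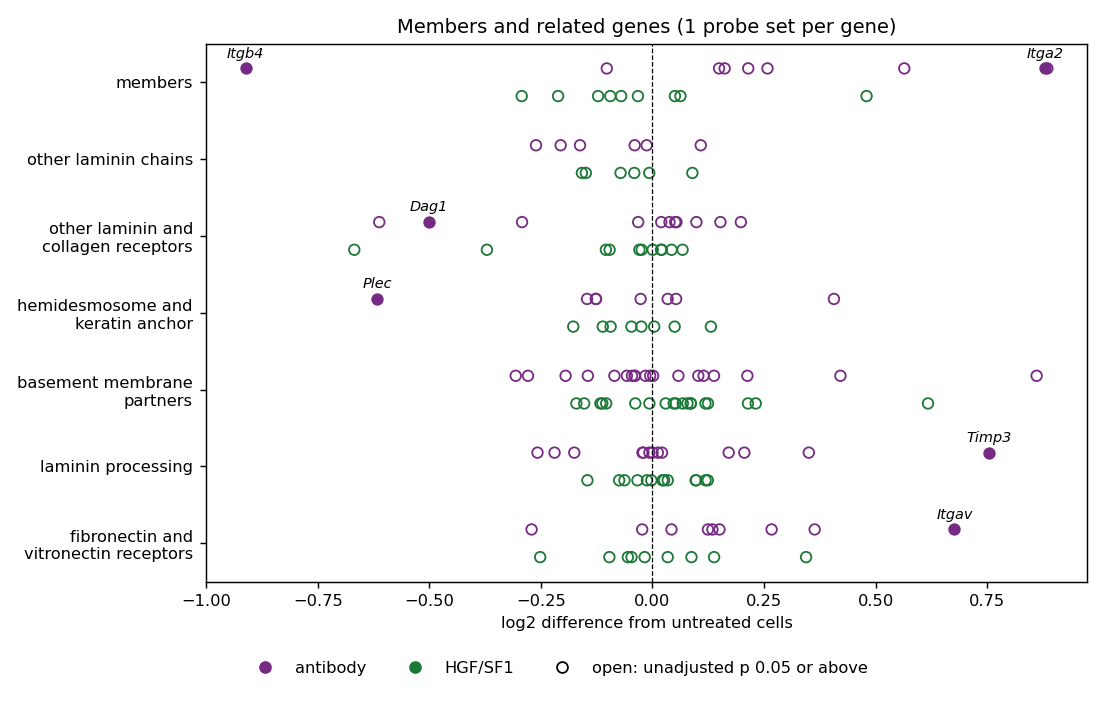
Log2 difference from untreated cells (horizontal axis) for the members and the genes of each related list (rows), with 1 point per gene, purple for the antibody and green for HGF/SF1, filled where the unadjusted p is under 0.05. Filled points are Itgb4 and Itga2 among the members and Dag1, Plec, Timp3 and Itgav among the 66 other genes, and 0 of the HGF/SF1 points are filled.

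In the list of laminin processing, 1 of 13 genes was called with the antibody, and the median was 0.00. Timp3, an inhibitor of metalloproteinases that is held in the matrix, was dim and gave 4.39, 4.67 and 4.39 in untreated cells and 5.58, 5.57 and 4.56 with the antibody. Its difference was 0.75 (SE 0.27, unadjusted p = 0.0242, adjusted p = 0.336 from limma), with all 4 probe sets above 0, and the call was lost without untreated array 1 or 3, antibody array 1 or 2, or experiment 1 or 2 (0.53 to 0.71). With the mean of the 4 probe sets it was 0.45 (SE 0.19, unadjusted p = 0.0455). Of 9 fibronectin and vitronectin receptors and their ligands, 1 was called higher, with a median of 0.13. Itgav, the α chain shared by the vitronectin receptors, gave 10.08, 10.44 and 10.55 in untreated cells and 10.59, 11.51 and 11.00 with the antibody. All 3 antibody values lay above the untreated ones, as in 6.21% of all genes. The difference was 0.68 (SE 0.23, unadjusted p = 0.0177, adjusted p = 0.307 from limma), with all 3 probe sets above 0, and it was 0.69 against HGF/SF1 (SE 0.23, unadjusted p = 0.0157). The call was lost without untreated array 1, antibody array 2, or experiment 2 or 3 (0.44 to 0.79), and with the mean of its 3 probe sets (0.60, SE 0.29, unadjusted p = 0.0684).

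The genes whose log2 values over the 9 arrays were most like those of the called members were listed by Pearson r, among genes brighter than the median. For Itgb4, of 6722 genes compared, they were Tmbim4 (0.957), Mindy1 (0.947), Lamtor4 (0.946), Ephx1 (0.941) and Commd7 (0.941), with differences from untreated cells of -0.77 to -0.24 after the antibody. For Itga2, of 6723 genes, they were Ttc14 (0.960), Slk (0.946), Zbtb17 (0.925), Lrig1 (0.923) and Hnrnpl (0.923), with differences from 0.36 to 0.61. Of these, Zbtb17, Lrig1 and Hnrnpl (0.61, SE 0.53) were not called. A gene chosen for a high r with a called member tends to differ in its direction, so the shared sign follows from the choice. These r values describe the 9 arrays and carry no test.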

How the data were processed

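Array values were taken from the deposited table of the series, in which the authors gave 1 log2 value per probe set and array. The methods of the study name affylmGUI with rma background correction of all arrays together. The normalization between arrays and the summary per probe set were not given in the sources used here, and array medians ranged from 5.91 to 6.08. The intensity files were not used. Samples were assigned to conditions and experiments from their titles, and 0 columns belonged to no sample.

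Of 22690 probe sets, 64 controls were left out and 22626 fitted with limma 3.58.1 in R 4.3.3. The fit took a mean per condition with eBayes (6 residual degrees of freedom, prior 2.39), two-sided, after a check on simulated data. The simulated arrays held no effect of the experiment, so that check does not cover correlation within experiments. GEO's platform annotation names 1 gene for 20380 probe sets. Itga1, Itga10, Itga11, Itgb8, Serpina1a and Spp1, listed beside the members or as markers, were not analysed here. Each gene is represented by the probe set with the highest mean over the 9 arrays. P-values were adjusted by Benjamini-Hochberg.

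The numbers at the end of the sample titles pair the samples: each number stands with each condition once, and the study states that each experiment held all 3. With condition means removed, r between arrays ranged from 0.0958 to 0.591 within an experiment, and from -0.484 to 0.0308 where experiment and condition differed. What remains cancels out within each condition, so positive values within experiments bring negative ones between them. The second range is therefore no separate support for the pairing.

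Alternatives were the experiment as a block, as a random block (correlation 0.249), leaving out each array or experiment, median centring, quantile normalization, a brightness filter, a trended robust prior and the mean of all probe sets of a gene. Named were all members, up to 4 called genes of each list by smallest p, the 5 genes most like each called member, and genes of the lists that stand beside a member in its complex, which were chosen after their values were seen. Members, lists and markers were chosen with earlier results of these data known.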

Additional observations from a re-analysis of the deposited data

How the results depend on the processing

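For the comparison of antibody with untreated cells, 2 members were called as reported. The count was 3 (Itga2, Itgb4 and Lamc1) with the experiment as a block, where 18.5% of all genes were called. It was 4 (Itga7 added) with the experiment as a random block, where 17.2% of all genes were called. It was 1 (Itgb4) with probe sets above the median brightness, where Itga2 and Lama3 were not fitted. Leaving out arrays or experiments gave 0 to 4 members, with 0 without experiment 2, 1 without untreated array 1 or 2 or antibody array 2, and 4 without HGF/SF1 array 1. Related genes called were 7 with the block, which added Krt14, Col4a2 and Timp1, and 1 to 6 in those fits (4 as reported), with 1 without antibody array 2 and 2 without experiment 2. The member median was 0.10 to 0.38. For the brightness filter and the fits that left out arrays or experiments, the share of all genes called is not given here. Counts from those fits show how calls move with the fit and are not read as a result about the genes.

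For antibody against HGF/SF1, leaving out arrays or experiments gave 1 (Itga2, without experiment 2) to 3 members called, 1 to 5 related genes (4 as reported) and a member median of 0.10 to 0.36. Related genes called were 1 without HGF/SF1 array 3 or experiment 2, and 2 without HGF/SF1 array 2, antibody array 2, untreated array 3 or experiment 3. With the block they were 6, as Krt14, Col4a2 and Sparc were added and Dag1 was lost (-0.48, unadjusted p = 0.0529). For HGF/SF1 against untreated cells, members called were 0 in every fit, related genes 0 to 2 when arrays or experiments were left out (2 without HGF/SF1 array 2, 1 without untreated array 3) and the median -0.12 to 0.03. The block changed no other member's call. For the alternative fits of these comparisons the share of all genes called is not given either, and their counts are read in the same way.

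Signs turned only when arrays or experiments were left out, all in differences that were not called. With the antibody they were Itga3 (-0.030 to 0.32), Lama3 (-0.28 to 0.067) and Lama5 (-0.20 to 0.46). With HGF/SF1 they were Itga2 (-0.69 to 0.057), Itga3 (-0.10 to 0.16), Itga7 (-0.030 to 0.82), Itgb4 (-0.28 to 0.061), Lama5 (-0.14 to 0.090), Lamb3 (-0.058 to 0.21) and Lamc1 (-0.20 to 0.092). Between the treatments they were Itga3 (-0.080 to 0.23), Itga7 (-0.031 to 1.04), Lama3 (-0.0073 to 0.22), Lama5 (-0.072 to 0.48) and Lamb3 (-0.046 to 0.36). These fits use fewer arrays, and the cause of the turned signs was not tested. Centring arrays moved the median of all probe sets with the antibody from 0.00 to 0.06, and under it Lamc1 was called (0.62, unadjusted p = 0.0410), as it was with the mean of its probe sets (0.53, unadjusted p = 0.0449). The intensities were not re-summarised, 1 probe set each measures Itga2, Itga7, Itgb4, Lama3 and Lamb3, and Itga2 and Lama3 are dim.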
